A study of Bos taurus with 8 samples.

Results

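The enzymes described here are hexokinases and glycolytic enzymes of fetal calf liver: HKDC1, HK1 and HK2, which phosphorylate glucose, PFKL, which forms fructose bisphosphate, ENO1 and ENO3, which are enolases, and PKLR and PKM, which are pyruvate kinases. Their probes were chosen by accession alone, but the genes were chosen with earlier results of these data known. Of these 8 genes, 7 had a matched probe, 18 probes in all, among 10860 genes with a detected probe. HK2 had 0 matched probes and was not analysed here.

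Glycolysis splits glucose into pyruvate in the cytosol. Its first step traps glucose as glucose 6-phosphate, and the steps catalysed by hexokinase, phosphofructokinase and pyruvate kinase run essentially one way, so that gluconeogenesis bypasses them with its own enzymes, while enolase works in both directions. Mature liver relies on the liver forms PFKL and PKLR, whereas fetal tissues are known for more of the widely expressed forms HK1 and PKM.

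Liver RNA came from Japanese Black fetuses (Bos taurus) taken about 8.5 months after conception, at day 260 ± 8.3 of gestation in the labels. LN dams were fed 60% and HN dams 120% of their requirement through pregnancy, and each group held 4 fetuses, numbered L5, L6, L8 and L9 in LN and L1, L2, L3 and L10 in HN. By the study's methods all fetuses shared a sire and were conceived with male-sorted semen, the dams were kept at more than 1 farm, and fetuses were chosen for the arrays by weight (the lightest of LN, the heaviest of HN), so diet and fetal weight cannot be told apart. The design text mentions pooling of RNA by group, but each array is labelled as 1 fetus and is treated so here.

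Each fetus was measured on an Agilent bovine array in 1 colour. The LN arrays shared 1 slide and the HN arrays a different one, each scanned separately, so diet cannot be told apart from slide or scan. Of 43803 spots per array, 32635 to 33371 were well above background in LN and 33254 to 34369 in HN, and 0 were saturated. The 8 hepatocyte markers, among them ALB and TTR, had a summed level of 20.93 to 20.99 in LN and 20.88 to 20.97 in HN on the log2 scale. Levels below are quantile-normalized log2 intensities of 1 probe, where 1 unit is a doubling, and a level is never set against that of another probe. The brightest detected probe on average represents a gene, and differences are LN minus HN. Adjusted p-values are Benjamini-Hochberg values of limma over 33439 detected probes. Exact p-values come from the 2-sided permutation test of 4 against 4 fetuses, which cannot go below 0.0286. Both set the difference between the groups against the variation between these fetuses, and a difference between the slides would enter both. The tissue was measured whole, so fewer cells of a type and less RNA per cell cannot be told apart.

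None of the measured enzymes passed an adjusted p of 0.05 in limma, and 0.0% of all genes did. Before adjustment, limma p-values of at most 0.05 were found for 3 of 7, against 6.05% of all genes: HKDC1, with the higher mean in LN, and ENO3 and PKM, with the lower mean in LN. This count was 1 with array position as a block, and also without L5, L8, L9 or L10. Over all genes, 3.3% had such a p with a higher mean in LN and 2.75% with a lower one. By mean, 5 of 7 enzymes were lower in LN (HK1, PFKL, ENO3, PKLR and PKM), against 48.4% of all genes, and 2 were higher (HKDC1 and ENO1). Without L3, 3 of 7 were lower. The median difference of the enzymes was -0.056 and that of all genes 0.0075, while the median size of the difference regardless of sign was 0.339 for the enzymes and 0.138 for all genes. In 1 of the 7, ENO3, no LN fetus overlapped with an HN fetus, with LN below, which held for 1.56% of all genes. The enzymes were chosen with earlier results of these data known, so their shares beside those of all genes are not independent evidence. The 18 probes were well above background on all 8 arrays.

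**Figure D1:**
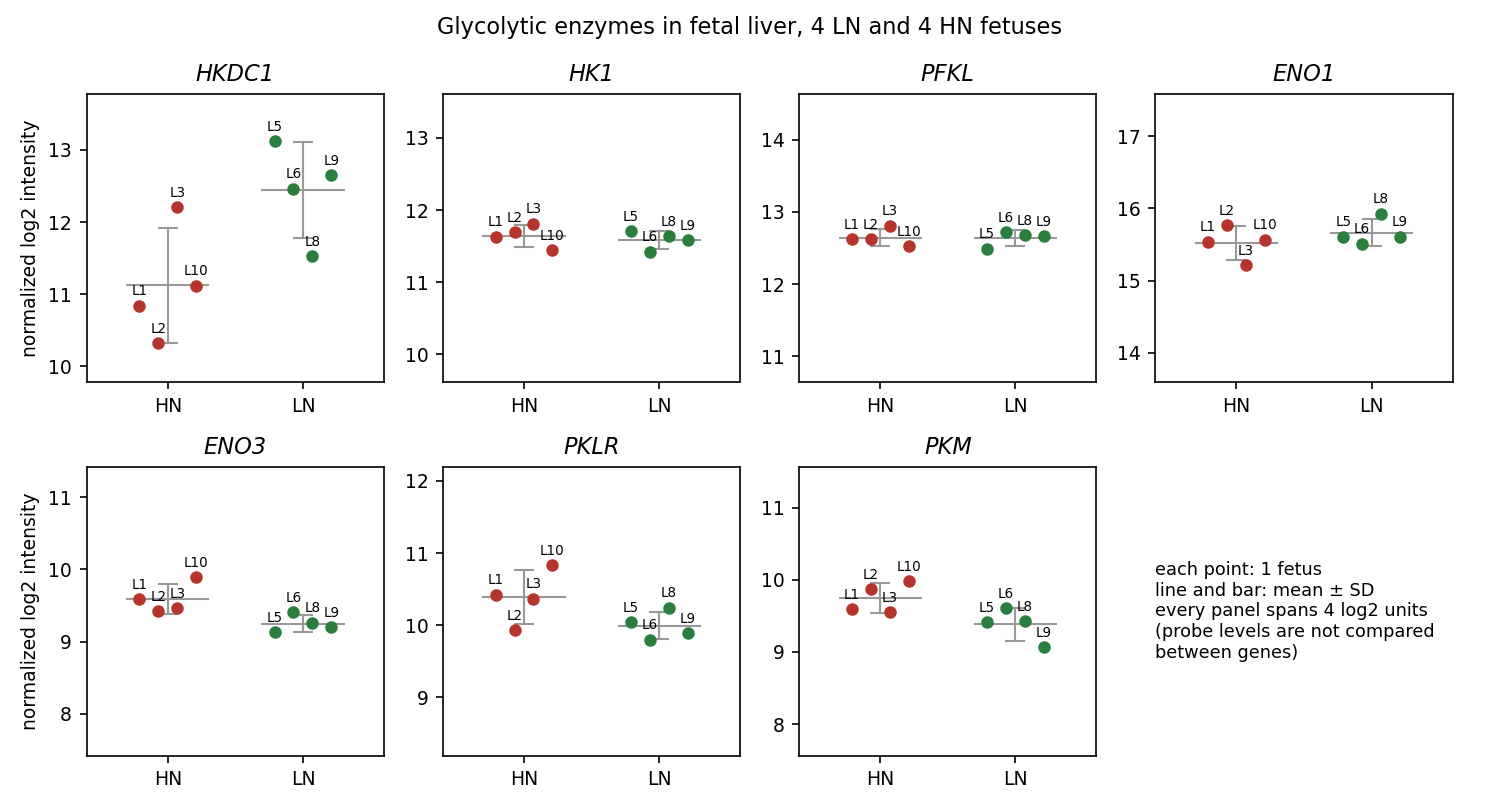
Normalized log2 intensity of the representing probe of each of the 7 measured enzymes, by maternal diet, with each point 1 fetus and the line and bar the mean ± SD of 4 fetuses. Every panel spans the same 4 log2 units, so the wide scatter of HKDC1 (10.32 to 12.21 in HN, 11.53 to 13.12 in LN) can be set against the narrow one of PFKL, while ENO3 is the only panel without overlap.

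HKDC1 encodes a hexokinase-domain protein that closely resembles HK1, and its gene is the neighbour of HK1 in the RefSeq table of assembly ARS-UCD2.0, with a transfer RNA gene as the only entry listed between them. The array held 1 probe of HKDC1 (A_73_103997, accession NM_001191484). Its log2 level was 13.12, 12.46, 11.53 and 12.65 in LN fetuses L5, L6, L8 and L9. In HN fetuses L1, L2, L3 and L10 it was 10.84, 10.32, 12.21 and 11.12. LN fetuses L5, L6 and L9 lay above every HN fetus, and the groups overlapped because HN fetus L3 stood above LN fetus L8. The means were 12.44 ± 0.66 in LN and 11.12 ± 0.80 in HN (SD, n = 4 each). The difference of 1.32 (2.49-fold, SE 0.44, 95% confidence interval 0.32 to 2.31) exceeded the SD but not the range of either group, and limma gave an adjusted p of 0.760 and the exact permutation p was 0.0571. In size this difference stood at the 99.5th percentile of all genes, and the within-group SD of HKDC1 at the 95.1st. Leaving out 1 fetus at a time, the difference ran from 1.05 without L2 to 1.68 without L3.

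Levels of other cell types were taken beside HKDC1, which is known from several epithelia. Of 5 bile duct markers 4 were detected, 1 lower and 3 higher in LN, with a summed log2 level of 13.01 to 13.39 in LN and 13.05 to 13.21 in HN. KRT7, a bile duct keratin, differed by 0.67 (SE 0.27, limma adjusted p = 0.785), whereas KRT19 differed by 0.0064. Of 8 neutrophil markers 7 had the higher mean in LN, and the summed log2 level of the 8 was 12.75 to 14.37 in LN and 11.56 to 12.82 in HN. All 5 detected erythroid markers also had the higher mean in LN, with a summed log2 level of 8.16 to 12.65 in LN and 7.55 to 9.10 in HN. The part of these cells in the HKDC1 result was not tested.

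HK1, the hexokinase of most cells, was even across the fetuses. Its 1 probe (A_73_115982, NM_001012668) read 11.71, 11.42, 11.64 and 11.58 in L5, L6, L8 and L9. The HN values were 11.63, 11.69, 11.81 and 11.44 in L1, L2, L3 and L10. The groups overlapped throughout, and all 8 values lay between 11.42 and 11.81. The difference was -0.056 (SE 0.12, 95% confidence interval -0.34 to 0.23, exact permutation p = 0.571, limma adjusted p = 0.951). This interval limits the difference of HK1 to a size below that of HKDC1's estimate, but a p that misses the threshold does not show equal levels.

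The same comparison was made within each fetus. The log2 level of HK1 was subtracted from that of HKDC1, and the mean of this quantity over the 8 fetuses was taken off, so that only its variation between fetuses remained. It was 1.24, 0.88, -0.27 and 0.90 in LN fetuses L5, L6, L8 and L9. In HN fetuses L1, L2, L3 and L10 it was -0.96, -1.54, 0.23 and -0.48. Again L8 lay among the HN fetuses and L3 above it. The LN and HN means differed by 1.37 (exact permutation p = 0.0571). This was 1 of 3 such pairs compared, and the p is not adjusted for the 3. Each gene rests on 1 probe, and cross-hybridization between HKDC1 and HK1 was not tested, since probe sequences were not used here.

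**Figure D2:**
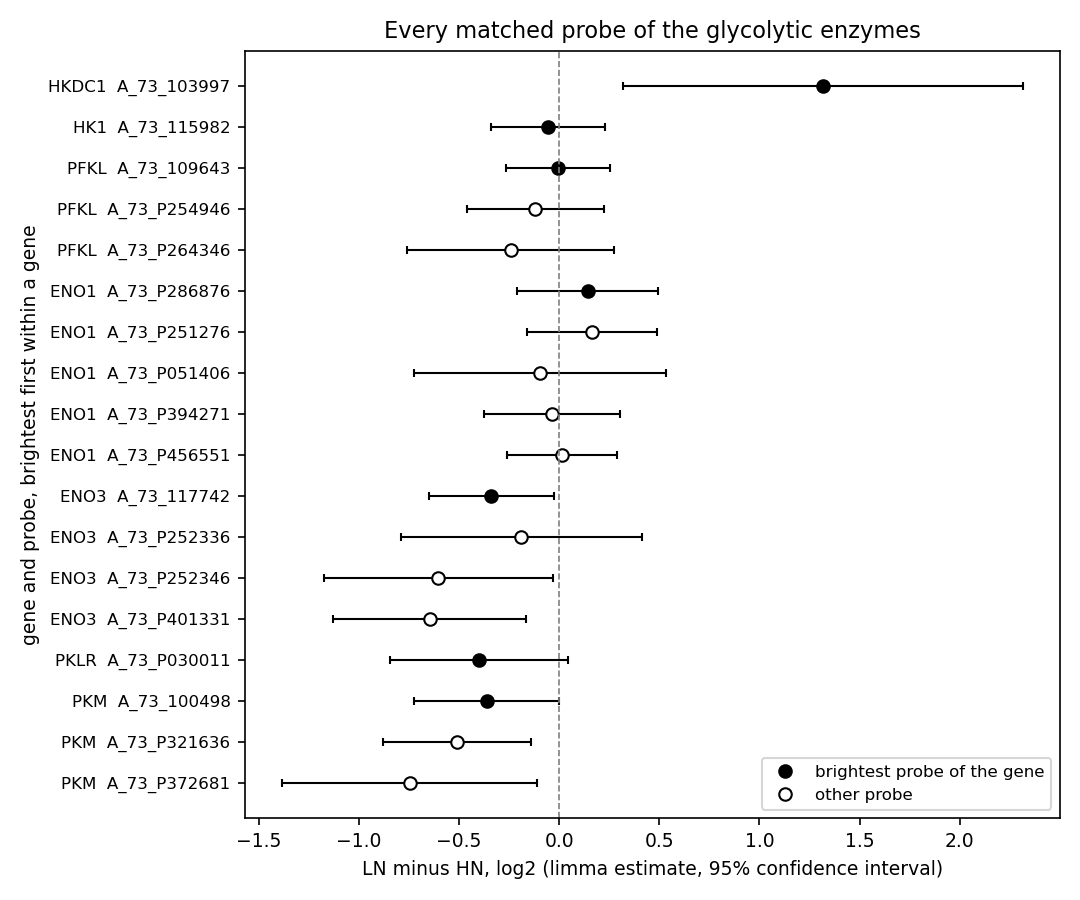
Difference LN minus HN in log2 units for each of the 18 probes of the 7 enzymes, as limma estimates with 95% confidence intervals, with filled points for the representing probe of a gene and open points for its other probes. All 4 ENO3 probes and all 3 PKM probes lie left of 0, the 5 ENO1 probes lie close to 0 on both sides, and HKDC1 lies alone on the right.

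PFKL encodes the liver subunit of phosphofructokinase, the enzyme of the committed step of glycolysis. Its representing probe (A_73_109643, NM_001080244) read 12.49, 12.72, 12.68 and 12.66 in L5, L6, L8 and L9. The HN values were 12.62, 12.62, 12.81 and 12.52 in L1, L2, L3 and L10. The 4 values of each group covered nearly the same range, with means of 12.64 ± 0.10 in LN and 12.64 ± 0.12 in HN (SD, n = 4 each). The difference was -0.0043 (SE 0.11, 95% confidence interval -0.26 to 0.26, exact permutation p = 1.0, limma adjusted p = 0.996). The other 2 probes differed by -0.12 (SE 0.15) and -0.24 (SE 0.23). Among the other subunits, the muscle form PFKM differed by 0.059 (SE 0.31) and the platelet form PFKP by -0.24 (SE 0.13, limma adjusted p = 0.798, both probes lower in LN).

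ENO1 encodes alpha-enolase, the form found in most tissues, which converts 2-phosphoglycerate to phosphoenolpyruvate. Its representing probe (A_73_P286876, NM_174049) read 15.61, 15.51, 15.93 and 15.61 in L5, L6, L8 and L9. The HN values were 15.54, 15.77, 15.21 and 15.57 in L1, L2, L3 and L10. L8 was the highest and L3 the lowest of all, and the other 6 fetuses were mixed. The difference was 0.14 (SE 0.16, 95% confidence interval -0.21 to 0.49, exact permutation p = 0.371, limma adjusted p = 0.896). It was 0.037 without L3, 0.052 without L8, 0.23 without L2 and 0.038 with the mean over detected probes. Of the 5 ENO1 probes, 3 had the higher and 2 the lower mean in LN, between -0.096 and 0.16.

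ENO3 encodes beta-enolase, best known from skeletal muscle, which catalyses the same step. Designed sequences were given for ENO3 alone among these genes, as a primer pair for quantitative PCR of the accession that the array probes also carry (NM_001034702). They are shown because they name the transcript that was followed. PCR values were not analysed here. Both are written 5′ to 3′ in lower case, 22 and 24 bases long.
ENO3 forward primer: ctagactcagagcccagcgaag
ENO3 reverse primer: ccatctcttagttccagagcttca

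The representing ENO3 probe (A_73_117742) read 9.13, 9.41, 9.26 and 9.20 in L5, L6, L8 and L9. The HN values were 9.59, 9.42, 9.46 and 9.89 in L1, L2, L3 and L10. Every LN fetus lay below every HN fetus, although L6 and L2 were only just apart and L10 stood above the rest of its group. The means were 9.25 ± 0.12 in LN and 9.59 ± 0.21 in HN (SD, n = 4 each). The difference was -0.34 (SE 0.14, 95% confidence interval -0.65 to -0.027), which put HN 1.27-fold above LN. The exact permutation p was 0.0286, the smallest that this design can give, and the limma adjusted p was 0.785. ENO3 was among the genes the study picked out on these animals, so its direction here is not independent evidence.

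The other 3 ENO3 probes also had the lower mean in LN, but each with overlap. Probe A_73_P401331 read 4.44, 3.65, 3.99 and 3.64 in LN fetuses L5, L6, L8 and L9 and 4.70, 4.56, 4.21 and 4.83 in HN fetuses L1, L2, L3 and L10. Only L5 reached into the HN range, above L3. Its difference was -0.65 (SE 0.21, exact permutation p = 0.0571). Probe A_73_P252346 differed by -0.60 (SE 0.25, exact permutation p = 0.0857) and probe A_73_P252336 by -0.19 (SE 0.26, exact permutation p = 0.600). Muscle markers were taken beside ENO3: of 6, only ACTA1 and MYH2 were detected, and CKM, MYH1 and TNNT3 were not. The summed log2 level of the detected pair was 7.87 to 9.04 in LN and 8.48 to 9.05 in HN, and HN fetus L10, with the highest ENO3, also had the highest MYH2, at 7.60 against 0.49 to 4.76 in the other 7 fetuses, whereas its ACTA1, at 8.39, was below that of L1, L2, L5 and L8 (8.52 to 8.97). The part of muscle RNA in the ENO3 result was not tested, and without L10 the ENO3 difference was -0.24.

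Within each fetus, the log2 level of ENO3 minus that of ENO1, centred over the 8 fetuses, was -0.30, 0.07, -0.50 and -0.23 in L5, L6, L8 and L9. In L1, L2, L3 and L10 it was 0.23, -0.18, 0.42 and 0.49. LN fetuses were low and HN fetuses high apart from L6 and L2, which lay the other way round. The LN and HN means differed by -0.48 (exact permutation p = 0.0571), and by -0.48 with an exact permutation p of 0.0286 when the mean over all detected probes stood for each gene. The third enolase gene, the neuronal form ENO2, differed by -0.088 (SE 0.20, 1 probe).

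**Figure D3:**
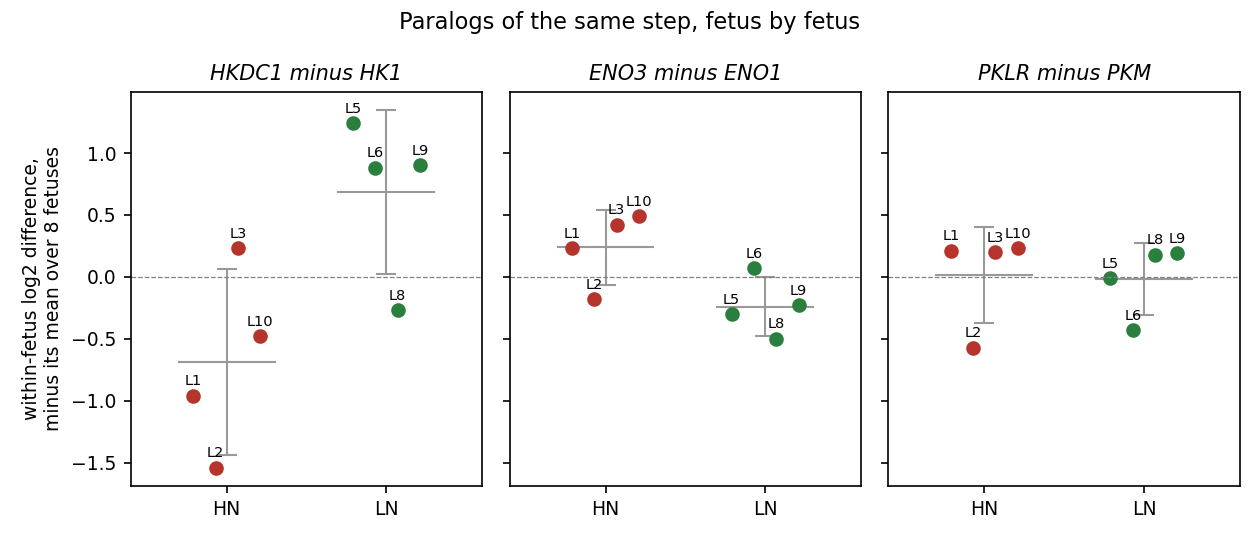
Within-fetus log2 difference between genes of the same glycolytic step, centred on its mean over the 8 fetuses, by maternal diet, with each point 1 fetus and the line and bar the mean ± SD of 4 fetuses. The groups differ by 1.37 for HKDC1 minus HK1, by -0.48 for ENO3 minus ENO1 and by -0.036 for PKLR minus PKM, and overlap in all 3.

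PKLR encodes the pyruvate kinase of liver and red cells, which makes pyruvate and ATP from phosphoenolpyruvate. Its 1 probe (A_73_P030011, NM_001076176) read 10.04, 9.80, 10.24 and 9.89 in L5, L6, L8 and L9. The HN values were 10.42, 9.93, 10.37 and 10.83 in L1, L2, L3 and L10. HN fetuses L1, L3 and L10 lay above every LN fetus, and L2 lay among the LN fetuses. The means were 9.99 ± 0.19 in LN and 10.39 ± 0.37 in HN (SD, n = 4 each). The difference was -0.40 (SE 0.20, 95% confidence interval -0.84 to 0.046, exact permutation p = 0.0857, limma adjusted p = 0.787), which put HN 1.32-fold above LN. Without L10 it was -0.25, and without L2 it was -0.55.

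Red cell precursors, which fetal liver also houses, express PKLR too. Of 8 erythroid markers 5 were detected, among them HBM, ALAS2, AHSP and GATA1, all with the higher mean in LN, the opposite direction to PKLR. Their summed log2 level was 8.16 to 12.65 in LN and 7.55 to 9.10 in HN. SLC4A1, KLF1 and EPB42 were not detected, and the part of erythroid cells in the PKLR result was not tested.

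PKM encodes the pyruvate kinase of muscle and of most other tissues, with alternative exons that these probes were not used to tell apart. Its representing probe (A_73_100498, NM_001205727) read 9.41, 9.61, 9.43 and 9.07 in L5, L6, L8 and L9. The HN values were 9.59, 9.87, 9.55 and 9.98 in L1, L2, L3 and L10. The LN fetuses were the lower ones except L6, which stood above L1 and L3. The means were 9.38 ± 0.23 in LN and 9.74 ± 0.21 in HN (SD, n = 4 each). The difference was -0.36 (SE 0.16, 95% confidence interval -0.72 to -0.0025, exact permutation p = 0.0857, limma adjusted p = 0.785), which put HN 1.29-fold above LN.

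Both other PKM probes gave larger differences in the same direction. Probe A_73_P321636 read 5.95, 5.80, 5.97 and 5.31 in L5, L6, L8 and L9, and 6.34, 6.36, 6.17 and 6.19 in L1, L2, L3 and L10. No LN fetus reached the HN range. Its difference was -0.51 (SE 0.16, exact permutation p = 0.0286, limma adjusted p = 0.760). Probe A_73_P372681 differed by -0.75 (SE 0.28, exact permutation p = 0.0571, limma adjusted p = 0.765), with L8 above L3 as the one exception to the order and L9, at 3.66, the lowest fetus. PKM is also expressed in blood cells: all 5 lymphocyte markers had the lower mean in LN (summed log2 level 12.18 to 12.87 in LN and 12.53 to 12.99 in HN), and of 7 detected Kupffer cell or macrophage markers 6 did (16.90 to 17.53 in LN and 16.97 to 17.65 in HN). Among the lymphocyte markers CD79A differed by only -0.0023. Outside the blood cells, 5 of 6 stellate or fibroblast markers had the lower and 1 the higher mean in LN. Their summed log2 level was 16.22 to 16.51 in LN and 16.10 to 17.24 in HN. Of 6 endothelial markers 2 had the lower and 4 the higher mean in LN. The neutrophil list (7 of 8 with the higher mean in LN) and the erythroid list (5 of 5) had the opposite direction to PKM. The part of these cells in the PKM result was not tested.

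The pyruvate kinases were compared within each fetus in the same way. PKLR minus PKM, centred, was -0.01, -0.43, 0.18 and 0.19 in L5, L6, L8 and L9 and 0.21, -0.57, 0.20 and 0.23 in L1, L2, L3 and L10. L6 and L2 were low in this quantity and the other 6 fetuses close together. The means differed by -0.036 (exact permutation p = 0.743). The sign turned in 5 of 14 alternatives, and without L2 the difference was -0.23 (exact permutation p = 0.0571, the smallest that 3 against 4 fetuses can give).

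Counted over all 18 probes, 14 had the lower and 4 the higher mean in LN, against 49.7% lower among the detected probes of the array. A limma p of at most 0.05 before adjustment with the lower mean in LN was found for 6 of the 18 (3 of ENO3 and 3 of PKM), against 2.97% of the detected probes. In 2 of the 18, A_73_117742 of ENO3 and A_73_P321636 of PKM, LN lay below HN without overlap, against 1.69%. Probes of 1 gene report the same RNA and are not independent. The genes were chosen with earlier results of these data known, so these shares are not independent evidence either. On 5 of the 18 (2 of PFKL, 1 of ENO1 and 2 of ENO3), the 3 lowest fetuses were L6, L9 and L3, a pattern chosen after the values were seen, which 9.15% of the detected probes had. L6 and L9 were also the arrays with the lowest median log2 intensity before normalization, at 5.966 and 6.094 against 6.305 to 6.714 on the other 6, with L3 at 6.381. The part of array brightness in these probes was not tested.

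Across the rest of the pathway, 16 of 18 other glycolytic enzymes were detected (HK3 and ALDOC had 0 matched probes). Of these 6 had the lower and 10 the higher mean in LN, with a median difference of 0.059, and 0 passed the adjusted p in limma. Without L2, 3 were lower, and with the mean over detected probes 9 were lower.

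Of 16 genes for glucose uptake and the control of glycolysis, 13 were detected, 6 with the lower and 7 with the higher mean in LN (median difference 0.12). TIGAR and SLC2A5 were not detected. SLC2A1 and HIF1A were the 2 whose groups did not overlap, both with LN above HN. No overlap, in either direction, was found for 4.14% of all genes. SLC2A1 encodes the glucose transporter GLUT1, and read 10.79, 10.17, 10.16 and 10.45 in L5, L6, L8 and L9 and 9.82, 9.90, 9.85 and 9.51 in L1, L2, L3 and L10. The lowest LN fetus was clear of the highest HN fetus. The difference was 0.62 (SE 0.17, exact permutation p = 0.0286, limma adjusted p = 0.760), and all 3 probes were higher in LN by 0.62 to 0.83. HIF1A, a transcription factor that induces glycolytic genes under low oxygen, lay at 10.79 to 10.86 in LN and 10.52 to 10.64 in HN. HIF1A differed by 0.25 (SE 0.0975, exact permutation p = 0.0286, limma adjusted p = 0.782). SLC2A2, the main glucose transporter of adult liver, differed by -0.24 (SE 0.32) and was named after its value was seen.

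The pentose phosphate branch leaves glycolysis at glucose 6-phosphate. Of 8 genes 7 were detected, 4 with the lower and 3 with the higher mean in LN (median difference -0.038), and H6PD had 0 matched probes. TALDO1, a transaldolase that returns carbon to glycolysis, was 12.69 to 12.94 in LN and 12.51 to 12.61 in HN, without overlap. In either direction, 4.14% of all genes had no overlap. The TALDO1 difference was 0.22 (SE 0.11, exact permutation p = 0.0286, limma adjusted p = 0.787). Its 2 probes were higher in LN by 0.11 to 0.22.

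All 8 genes of the opposing gluconeogenic list had the lower mean in LN, with a median difference of -0.34, and 0 passed the adjusted p in limma. The enzymes that help to undo the hexokinase, phosphofructokinase and pyruvate kinase steps are G6PC (listed as G6PC1), FBP1 and PCK1. Their differences of -3.47, -0.42 and -1.98 (limma adjusted p = 0.760, 0.785 and 0.760) stood beside 1.32 for HKDC1, -0.0043 for PFKL and -0.40 for PKLR. These genes were picked out by the study on the same animals, so their direction is not independent evidence. HN fetus L3, which had the highest HKDC1 of its group, had the lowest G6PC1 of its group at 7.93 (11.44 to 11.95 in the other 3), the lowest PCK1 at 7.88 (9.75 to 10.73) and the lowest FBP1 at 14.22 (14.67 to 14.96), each within the LN range.

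**Figure D4:**
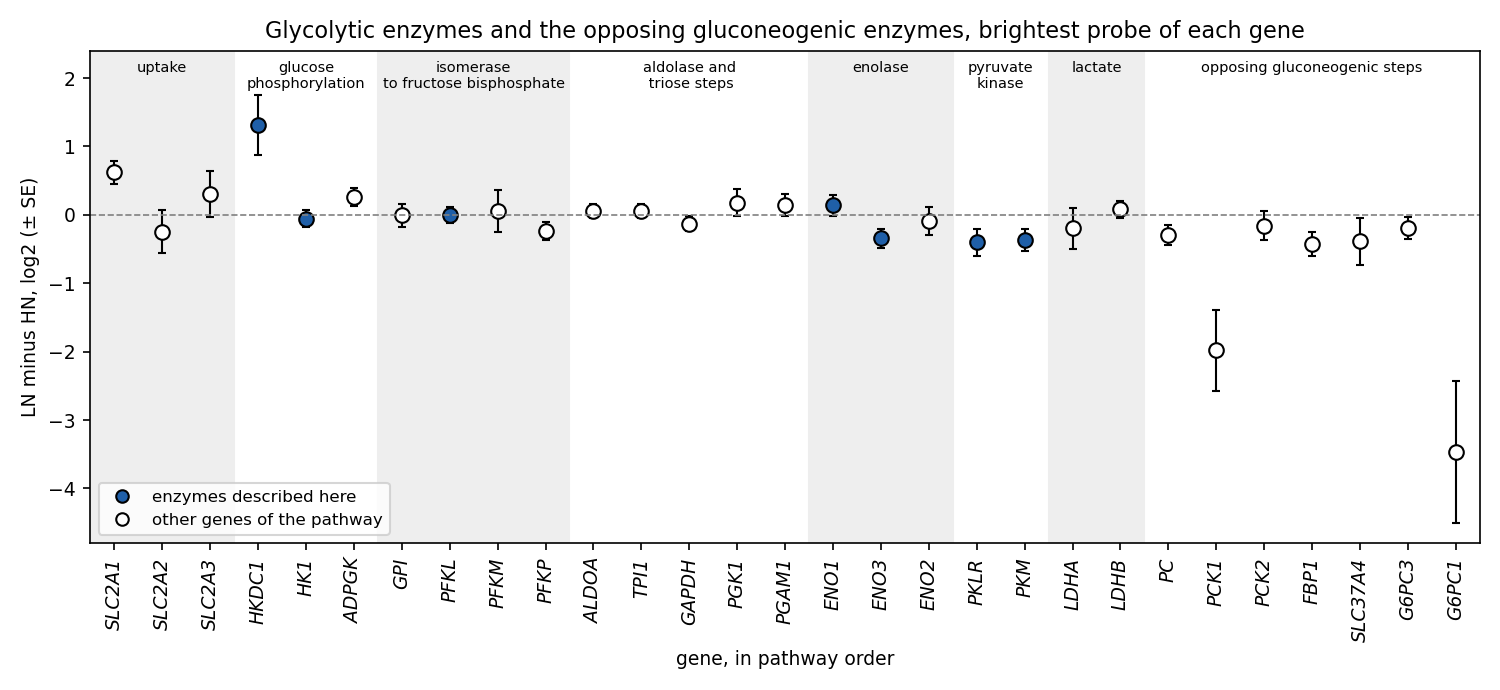
Difference LN minus HN in log2 units (point, limma estimate; bar, ± SE) of glycolytic, uptake and opposing gluconeogenic genes in pathway order, each by its representing probe. HKDC1 at 1.32 stands above the other genes of the upper steps, most glycolytic genes lie within 0.5 of 0, and PCK1 at -1.98 and G6PC1 at -3.47 stand far below.

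For each measured enzyme, the 2 genes most like it were taken as those with the highest Pearson r over the 8 fetuses after group means were subtracted, out of 10709 genes, as a description with no test. A search over so many genes in 8 fetuses selects high values of r. For HKDC1 they were GALR1 (r = 0.993, Spearman's rho = 0.976) and TSC22D4 (r = 0.973, rho = 0.905). For HK1 they were PSMG1 (r = 0.992) and NEURL1 (r = 0.991), and for PFKL they were GNAS (r = 0.982) and C7H1orf35 (r = 0.978). ENO1 was closest to CCDC124 (r = 0.989) and SYN3 (r = 0.988), and ENO3 to MBL1 (r = 0.988) and MAPKAPK3 (r = 0.979). PKLR was closest to TMEM120B (r = 0.983) and TMEM220 (r = 0.976), and PKM to MAL2 (r = 0.969) and HDAC5 (r = 0.967). The fetuses share a slide within a group, and r stayed between 0.915 and 0.988 for these 14 pairs when the 2 fetuses farthest from the enzyme's median were left out. None of these genes was itself an enzyme of the lists described here.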

How the data were processed

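Agilent bovine (v2) 4 × 44K arrays (design on UMD 3.1, bosTau6) were hybridised in 1 colour. The authors deposited a background-subtracted intensity per spot, made with Feature Extraction 11.0.1.1 and not normalized between arrays, and a table of log2 values for 31068 probes. That table was tested to be the quantile-normalized log2 signal of those probes that exceeded background clearly on each of the 8 arrays (largest gap 5.0e-07). Here control spots and 16 probes marked as outliers were removed, replicate spots were averaged, and log2 intensities of 43637 probes were quantile normalized. Detection required 4 or more of the 8 arrays to be well above background. Of all probes, 26740 were matched by accession to 12603 genes of the RefSeq table (ARS-UCD2.0). No coordinates are given, since the builds differ.

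The groups were tested in limma 3.58.1 (R 4.3.3; lmFit, eBayes, Benjamini-Hochberg), and single values with exact 2-sided permutation tests (scipy 1.17.1). The functions were tested on simulated data. The number of arrays limits the precision. Genes named are the members, other isozymes of their steps, the opposing enzymes G6PC1, FBP1 and PCK1, listed genes with an unadjusted limma p of at most 0.05 or no overlap, and the 2 genes most like each member. Some genes of the lists enter the counts only, without values of their own. The members and lists were chosen with earlier results of these data known. Alternatives were scaling to the 75th percentile, normexp (offset 50, on spot and background medians), the authors' log2 table, other probe filters, the mean over a gene's probes, eBayes with trend and robust settings, array position as a block, and each fetus left out.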

Additional observations from a re-analysis of the deposited data

Results flagged for a closer look

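Of 42 groups of 4 fetuses checked for a value far from the others (a gap to the nearest fetus above 0.829 of the group's range), 2 held one. The limit is a 95% critical value, so chance alone gives such a gap in some groups. On ENO1 probe A_73_P394271, LN fetus L8 read 10.3 on the log2 scale, against 9.80 to 9.87 in the other LN fetuses, a gap of 0.853 of the range. For PKLR minus PKM within a fetus, HN fetus L2 stood at -0.57 (centred log2), against 0.20 to 0.23 in the other HN fetuses, a gap of 0.957 of the range. Both differences between LN and HN that these values enter were small, at -0.037 and -0.036.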

How the results depend on the processing

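HKDC1 and ENO1 kept the higher mean in LN, and ENO3, PKLR and PKM the lower one, under all 16 alternatives run for each, and 0 of the 7 enzymes passed the adjusted p in limma under any (lowest adjusted p 0.506, for HKDC1). Leaving out 1 fetus at a time, the difference ran from 1.05 to 1.68 for HKDC1, -0.12 to 0.0011 for HK1, -0.044 to 0.051 for PFKL, 0.037 to 0.23 for ENO1, -0.40 to -0.24 for ENO3, -0.55 to -0.25 for PKLR and -0.44 to -0.26 for PKM. HK1 turned to 0.00049 without L6 and 0.0011 without L3, and PFKL to 0.046 without L5, 0.051 without L3 and 0.0079 with 75th percentile scaling, which moved the median of all genes from 0.0075 to -0.023. The within-fetus difference of PKLR minus PKM ran from -0.23 to 0.10 and was 0.14 with the mean over detected probes, and that of ENO3 minus ENO1 was -0.48 with this mean (exact permutation p = 0.0286). With a fetus left out, enzymes lower in LN numbered 3 to 5 (3 without L3) and other glycolytic enzymes 3 to 8 (3 without L2), and the latter numbered 5 to 9 under the other alternatives (9 with the mean over detected probes). Enzymes with a limma p of at most 0.05 before adjustment numbered 1 with array position as a block and 1 to 3 with a fetus left out (1 without L5, L8, L9 or L10). Other glycolytic enzymes with such a p numbered 2 with normexp and 0 to 2 with a fetus left out (0 without L5, L6, L2 or L10, and 2 without L9). Genes without overlap numbered 603 to 1021 with 7 fetuses, where fewer have to be separated, against 450 with 8. With 3 against 4 the exact test cannot go below 0.0571. The causes were not tested. No paired analysis was possible because the LN and HN fetuses share 0 replicate numbers. The block of array position matched arrays by their place on the slide, not fetuses.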
